A study of Mus musculus with 9 samples.

Results

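A set of 10 genes used as identity genes of resident macrophages and microglia was followed across injured and uninjured mouse irises. They are *Adgre1*, *Aif1*, *Tmem106a*, *Selenop*, *Mertk*, *Axl*, *Gas6*, *Timd4*, *P2ry12* and *Gpr34*, found by symbol as 10 of the 18349 genes listed for each library. They were chosen from earlier results of these same libraries, with their values in both comparisons of interest known, so the calls reported for them describe the genes and are not independent evidence of a direction. Iris RNA was sequenced in 9 libraries, 3 per group, and each library combined 3 irises. The groups were Sham VEGFR3fl/fl, injured VEGFR3fl/fl and injured VEGFR3iLECko. All mice carried floxed VEGFR3 alleles, and per the labels all received tamoxifen at 80 mg/kg from day 13 to day 17. Only the VEGFR3iLECko mice carried Cre, in a tamoxifen-inducible form under *Prox1*, so that Cre itself and loss of VEGFR3 cannot be told apart. Corneal alkali injury was made at 6 weeks of age with sodium hydroxide (0.5 μL at 1 M) left on for 60 seconds, Sham corneas received PBS, and irises were taken at 10 weeks, which is day 28. The question put to the identity genes was how they stood after injury and whether the deletion aimed at lymphatic endothelium was accompanied by a different level.

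Macrophages that settle in a tissue carry surface receptors for taking up dying cells and for sensing their surroundings. Receptors of the TAM family, MERTK and AXL among them, bind the bridging protein GAS6, and some of the family also bind protein S. Both bridging proteins attach to phosphatidylserine on dying cells, and TIM-4, the product of *Timd4*, binds phosphatidylserine directly. *Adgre1* encodes F4/80 and *Aif1* encodes IBA1, both classic macrophage and microglia markers. P2Y12, a receptor for ADP, and GPR34, a receptor for lysophosphatidylserine, are best known from microglia, and selenoprotein P carries selenium between tissues. Several of these genes are not restricted to macrophages: *Axl*, *Gas6* and *Selenop* are also expressed by stromal and vascular cells, and *Mertk* by the retinal pigment epithelium.

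Promoter sequence of the members was examined for 2 short motifs known from macrophage gene regulation, GAGGAA, the core bound by PU.1, and TGCTGA, a partial site for MAF proteins. Both strands were searched in the 250 bases before each start that RefSeq places on GRCm38.p6, and no match of one motif overlapped a match of the other in the members. Of the 10 members 8 had a sequence. The PU.1 core was found in 3 of them, *Aif1*, *Axl* and *Selenop*, and in 25.9% of 27025 genes, and the MAF site in 1 member, *Timd4*, and in 18.02% of genes. The windows of these 4 members are shown because they are the ones that hold a match. In *Aif1*, *Axl* and *Timd4* the start used lies inside the gene position given further below. In *Aif1* and *Axl* the match lies inside it too, and in *Timd4* and *Selenop* the matches lie before it. They are written from the 5′ end in the direction of the gene, with matches in capitals. *Aif1* lies on chromosome 17 (chr17:35176053-35176302, minus strand), *Axl* on chromosome 7 (chr7:25788734-25788983, minus strand), *Selenop* on chromosome 15 (chr15:3270517-3270766, plus strand, the first of 3 annotated starts) and *Timd4* on chromosome 11 (chr11:46810549-46810798, plus strand).
Aif1: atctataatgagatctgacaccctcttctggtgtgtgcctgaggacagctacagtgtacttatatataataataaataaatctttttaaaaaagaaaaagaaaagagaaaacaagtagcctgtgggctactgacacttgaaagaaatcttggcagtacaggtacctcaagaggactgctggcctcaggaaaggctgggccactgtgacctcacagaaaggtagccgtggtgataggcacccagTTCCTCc
Axl: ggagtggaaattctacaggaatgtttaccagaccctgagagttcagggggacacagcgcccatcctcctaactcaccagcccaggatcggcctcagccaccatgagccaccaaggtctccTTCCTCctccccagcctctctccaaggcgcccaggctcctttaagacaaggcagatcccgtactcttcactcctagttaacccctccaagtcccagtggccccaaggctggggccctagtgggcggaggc
Selenop: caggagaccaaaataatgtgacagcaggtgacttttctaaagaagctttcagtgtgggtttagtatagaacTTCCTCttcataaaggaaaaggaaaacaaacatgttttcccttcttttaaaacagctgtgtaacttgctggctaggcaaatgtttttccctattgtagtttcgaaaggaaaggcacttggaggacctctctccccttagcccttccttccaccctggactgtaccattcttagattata
Timd4: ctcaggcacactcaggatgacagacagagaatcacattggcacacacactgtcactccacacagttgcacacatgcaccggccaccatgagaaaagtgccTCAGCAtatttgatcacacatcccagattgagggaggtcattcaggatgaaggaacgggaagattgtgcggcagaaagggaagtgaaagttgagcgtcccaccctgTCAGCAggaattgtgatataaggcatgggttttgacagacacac
These windows hold the reverse complements, TTCCTC in *Aif1*, *Axl* and *Selenop* and TCAGCA at 2 places in *Timd4*. Of the members with a PU.1 core, *Aif1* and *Axl* were called higher after injury of VEGFR3fl/fl mice and *Selenop* was not. Of those with a sequence and no PU.1 core, *Tmem106a*, *Mertk*, *Timd4* and *P2ry12* were called higher and *Gas6* was not. Among all genes tested 22.1% were called higher, and a link of the motif to injury was not tested.

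Gene positions are those of RefSeq on GRCm38.p6, and no exon of *Adgre1*, *Aif1*, *Tmem106a*, *Mertk*, *Axl*, *Timd4* or *Gpr34* overlaps one of another gene in the annotation. Library totals lay between 16617187 and 18306359 counts. Levels are CPM, the counts of a gene scaled to library size by the TMM method, and tests are edgeR quasi-likelihood tests on all 9 libraries with Benjamini-Hochberg adjustment over the 15010 genes tested. A gene was called when its adjusted p was under 0.05 and its change exceeded 1.5-fold. All 10 members were tested, *Timd4* only because of its counts in injured libraries. Sample labels were checked with the targeted gene, *Flt4*, which encodes VEGFR3. Its mean was 14.6 CPM in Sham, 20.1 CPM in injured VEGFR3fl/fl and 25.4 CPM in the libraries labelled VEGFR3iLECko, with a log2 fold change of 0.33 between the injured groups (edgeR, adjusted p = 0.20), so the label was not borne out by a lower level in whole iris. The 4 Y-linked genes measured averaged 3.64 to 5.25 on a log2 CPM scale in Sham libraries and in 2 of the injured VEGFR3fl/fl libraries, but -3.16 in injured VEGFR3fl/fl replicate 3 and -3.17 to -2.69 in the 3 libraries labelled VEGFR3iLECko. The tissue itself also changed, as the summed level of 9 pigment cell markers went from 27860 to 29850 CPM in Sham to 3423 to 5876 CPM in injured VEGFR3fl/fl and 5134 to 7188 CPM in libraries labelled VEGFR3iLECko, while that of 17 pan-macrophage genes went from 656.2 to 720.8 CPM to 16770 to 28780 CPM and 11590 to 14240 CPM. In bulk RNA, fewer cells of a type and less RNA per cell cannot be told apart.

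After injury of VEGFR3fl/fl mice, 8 of the 10 members were called higher and 0 lower, and for each of the 8 the lowest injured library exceeded the highest Sham library. Of these 8, *Timd4* passed the filter only through its counts in injured libraries. Its separation was 4 counts in the lowest injured VEGFR3fl/fl library against at most 3 in Sham. At an unadjusted p under 0.05 the edgeR fit had 9 higher and 0 lower, and DESeq2 called 9 and 0. Among all genes tested 22.1% were called higher and 17.5% lower, and 66.3% had groups that did not overlap. DESeq2 called 3317 of all genes higher and 2631 lower, and 9616 of the 15010 genes had an unadjusted edgeR p under 0.05. The median log2 fold change of the 10 members was 1.93, also with *Timd4* set against a floor of 3 counts per Sham library, compared with 0.010 for all genes. *Aif1*, *Adgre1* and *Tmem106a* changed most apart from the thinly counted *Timd4*, the TAM receptors and purinergic and lysolipid receptors less, and *Selenop* and *Gas6* did not pass.

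*Adgre1* (NCBI Gene ID 13733, chr17:57358581-57483529, plus strand) stood at 16.2, 13.9 and 17.3 CPM in Sham replicates 1 to 3, at 131.5, 145.2 and 143.6 CPM in injured VEGFR3fl/fl and at 97.4, 94.5 and 84.7 CPM in libraries labelled VEGFR3iLECko. The 3 groups were fully separated, with the libraries labelled VEGFR3iLECko in between. Its mean rose from 15.8 ± 1.74 CPM (SD, n = 3) to 140.1 ± 7.48 CPM (SD, n = 3), a log2 fold change of 3.15 (standard error 0.10, edgeR adjusted p = 5.15e-08).

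*Aif1* (NCBI Gene ID 11629, chr17:35170986-35176083, minus strand) was measured at 2.22, 2.43 and 2.76 CPM in Sham, 24.8, 24.9 and 24.0 CPM in injured VEGFR3fl/fl and 12.3, 10.02 and 11.9 CPM in libraries labelled VEGFR3iLECko. The injured VEGFR3fl/fl libraries lay close together, and again the groups did not overlap. The rise after injury was 3.31 on the log2 scale (standard error 0.13, edgeR adjusted p = 1.55e-07).

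*Tmem106a* (NCBI Gene ID 217203, chr11:101582242-101591788, plus strand), a membrane protein gene of macrophages, gave 11.7, 12.6 and 11.4 CPM in Sham, 111.2, 98.8 and 98.5 CPM in injured VEGFR3fl/fl and 65.0, 59.6 and 52.4 CPM in libraries labelled VEGFR3iLECko. Its order of groups was the same as that of *Adgre1* and *Aif1*, without overlap. After injury it rose by 3.11 on the log2 scale (standard error 0.10, edgeR adjusted p = 5.15e-08). Its paralogs are expressed more widely and went the other way without reaching 1.5-fold, *Tmem106b* with a log2 fold change of -0.41 (edgeR adjusted p = 0.0164) and *Tmem106c* with -0.49 (edgeR adjusted p = 0.00174).

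**Figure D1:**
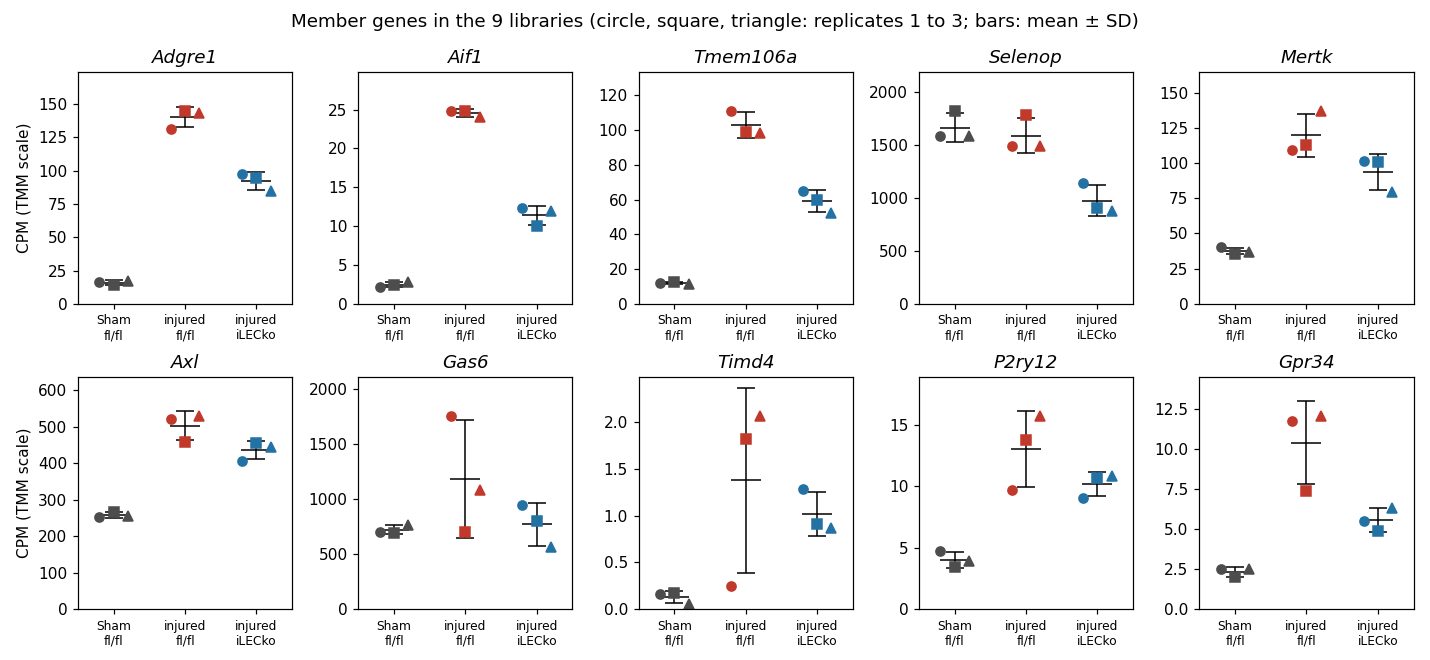
Expression of the 10 members in CPM on the TMM scale (vertical axes from 0, one scale per gene) in Sham VEGFR3fl/fl, injured VEGFR3fl/fl and injured VEGFR3iLECko libraries. Symbols are libraries and bars are the mean ± SD of 3. *Adgre1*, *Aif1* and *Tmem106a* fall into 3 separate groups, *Selenop* is lowest in the third group, and *Gas6* and *Timd4* spread most among the injured VEGFR3fl/fl libraries.

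Among the receptors for dying cells, *Mertk* (NCBI Gene ID 17289, chr2:128698915-128803162, plus strand) stood at 40.1, 35.5 and 36.8 CPM in Sham, 109.5, 112.6 and 137.4 CPM in injured VEGFR3fl/fl and 101.3, 101.1 and 79.1 CPM in libraries labelled VEGFR3iLECko. Every injured library exceeded every Sham library, and the log2 fold change after injury was 1.68 (standard error 0.12, edgeR adjusted p = 4.98e-06). The summed level of 8 markers of retinal pigment epithelium, another source of *Mertk*, was 708.4 to 820.6 CPM in Sham and 282.2 to 491.1 CPM in injured VEGFR3fl/fl libraries, and the part of these cells in the *Mertk* level was not tested.

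*Axl* (NCBI Gene ID 26362, chr7:25756500-25788924, minus strand), at 251.1, 266.0 and 255.0 CPM in Sham, reached 520.5, 458.1 and 529.7 CPM in injured VEGFR3fl/fl and 407.0, 454.8 and 444.1 CPM in libraries labelled VEGFR3iLECko. It rose by 0.97 on the log2 scale after injury (standard error 0.085, edgeR adjusted p = 1.39e-05), the smallest change among the 8 called members. The *Axl* to *Mertk* ratio of CPM was 6.27 to 7.50 in Sham and 3.86 to 4.75 in injured VEGFR3fl/fl libraries, with no overlap. *Tyro3*, the remaining TAM receptor, fell by 0.61 on the log2 scale (edgeR adjusted p = 0.0124).

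*Gas6* (NCBI Gene ID 14456, chr8:13465374-13494535, minus strand), the ligand shared by the TAM receptors, was at 703.8, 692.1 and 765.4 CPM in Sham and at 1755, 700.5 and 1078 CPM in injured VEGFR3fl/fl libraries. Injured replicate 1 was highest, and replicate 2 lay within the Sham range. The log2 fold change was 0.71 (standard error 0.30, edgeR adjusted p = 0.0686) and between 0.30 and 0.98 with single libraries left out, the higher value without injured replicate 2, where it was called (edgeR adjusted p = 0.0087, with 0.277 as the highest of any alternative). Exons of *Gas6* overlap those of *Tmem255b* on the other strand, and strand use in counting is not given, so reads of the pair may be shared. *Tmem255b* was also highest in injured replicate 1, at 36.2 CPM compared with 5.50 and 7.75 CPM in replicates 2 and 3, and its part in the *Gas6* value was not tested. Protein S, the other TAM ligand, is encoded by *Pros1*, which rose by 1.36 on the log2 scale (edgeR adjusted p = 5.91e-06). The *Gas6* to *Pros1* ratio was 7.74 to 8.46 in Sham and 8.12, 3.49 and 4.15 in injured VEGFR3fl/fl replicates 1 to 3.

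*Timd4* (NCBI Gene ID 276891, chr11:46810786-46844333, plus strand) had 3, 3 and 1 counts in Sham, 4, 31 and 36 in injured VEGFR3fl/fl and 22, 16 and 15 in libraries labelled VEGFR3iLECko. Injured VEGFR3fl/fl replicate 1 was near the Sham level and the other libraries of that group were not. Against a floor of 3 counts per Sham library, the highest count seen there, *Timd4* was 8.18-fold higher in injured VEGFR3fl/fl. The fold was 6.12 without replicate 3 and 11.5 without replicate 1. The fitted change had an edgeR adjusted p of 0.00504. These folds rest on the observed counts and set no confidence limit on the Sham level. Of its relatives, *Havcr2*, which encodes TIM-3, rose from 1.121 to 41.9 CPM with a log2 fold change of 5.21 (edgeR adjusted p = 1.79e-08), whereas *Havcr1*, which encodes TIM-1, was at 0 in Sham and 0.20 CPM in injured VEGFR3fl/fl libraries and was not tested.

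Of the receptors known from microglia, *P2ry12* (NCBI Gene ID 70839, chr3:59216271-59262985, minus strand) stood at 4.71, 3.39 and 3.94 CPM in Sham, 9.65, 13.8 and 15.7 CPM in injured VEGFR3fl/fl and 9.06, 10.7 and 10.8 CPM in libraries labelled VEGFR3iLECko. It was higher in every injured library than in Sham, with a log2 fold change of 1.70 in VEGFR3fl/fl (standard error 0.21, edgeR adjusted p = 0.000105). Its exons overlap *Med12l* on the other strand, which stood at 6.55 to 9.42 CPM in Sham and 5.46 to 7.75 CPM in injured VEGFR3fl/fl. The neighbouring receptor gene *P2ry13* rose by 2.49 on the log2 scale (edgeR adjusted p = 3.84e-05).

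*Gpr34* (NCBI Gene ID 23890, chrX:13622650-13640859, plus strand) gave 2.49, 1.98 and 2.48 CPM in Sham, 11.7, 7.38 and 12.1 CPM in injured VEGFR3fl/fl and 5.49, 4.87 and 6.33 CPM in libraries labelled VEGFR3iLECko. The 3 groups did not overlap, and injured VEGFR3fl/fl replicate 2 was the lowest of its group. Its rise after injury was 2.16 on the log2 scale (standard error 0.23, edgeR adjusted p = 4.52e-05). The ratio of *P2ry12* to *Adgre1* CPM was 0.228 to 0.290 in Sham and 0.0734 to 0.110 in injured VEGFR3fl/fl libraries.

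*Selenop* (NCBI Gene ID 20363, chr15:3270767-3280510, plus strand) did not pass the test after injury of VEGFR3fl/fl mice. It had 1584, 1828 and 1587 CPM in Sham, 1490, 1783 and 1496 CPM in injured VEGFR3fl/fl and 1142, 907.2 and 880.1 CPM in libraries labelled VEGFR3iLECko. Sham and injured VEGFR3fl/fl libraries overlapped, with a log2 fold change of -0.068 (standard error 0.13, edgeR adjusted p = 0.675). Among 25 other genes of selenoproteins and of selenium handling, 5 were called higher and 2 lower after injury with a median log2 fold change of 0.10, led by *Msrb1* at 2.29, *Dio2* at 1.70, *Gpx1* at 1.43 and *Sephs2* at 1.13.

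**Figure D2:**
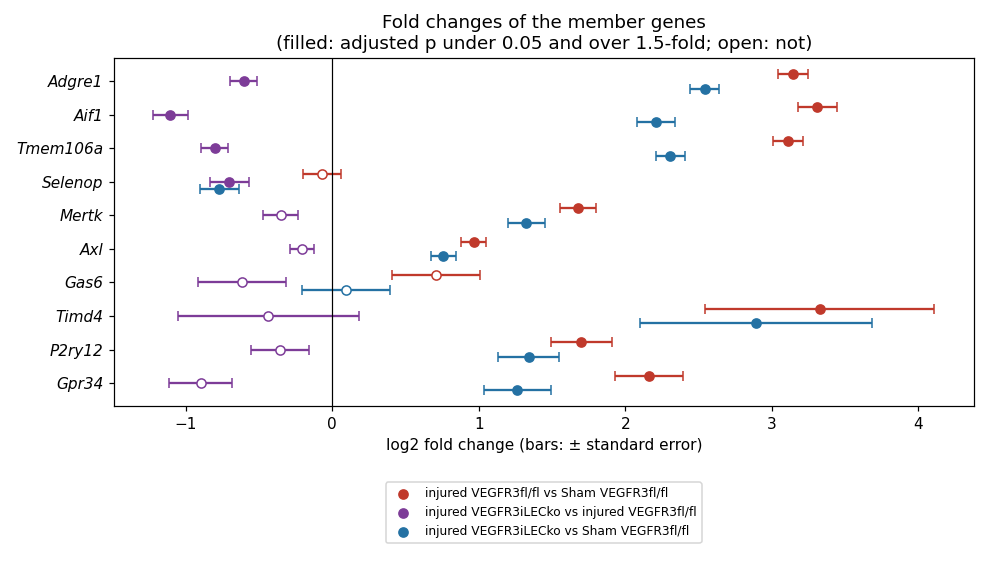
Log2 fold changes of the 10 members (horizontal axis, bars ± standard error from edgeR) for injured VEGFR3fl/fl against Sham, injured VEGFR3iLECko against injured VEGFR3fl/fl, and injured VEGFR3iLECko against Sham. Filled points passed an adjusted p under 0.05 and 1.5-fold, open points did not. All 10 values of injured VEGFR3iLECko against injured VEGFR3fl/fl are below 0, and 4 are filled. *Timd4* had 1 to 3 counts in Sham, so its fitted values against Sham are no bound.

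Between the injured groups, 4 members were called lower in the libraries labelled VEGFR3iLECko and 0 higher by edgeR. DESeq2 called 5 lower and 0 higher, and at an unadjusted p under 0.05 edgeR had 7 lower and 0 higher. The 4 genes were *Aif1*, *Tmem106a*, *Selenop* and *Adgre1*. Among all genes 0.466% were called lower and 0.573% higher by edgeR, and DESeq2 called 281 genes lower and 349 higher. An unadjusted p under 0.05 was reached in edgeR by 3674 of the 15010 genes. All 10 members had a log2 fold change below 0, with a median of -0.61 compared with -0.0099 for all genes. In 7 members every library labelled VEGFR3iLECko was below every injured VEGFR3fl/fl library, a separation in either direction that 26.7% of all genes showed, and the exceptions were *Gas6*, *Timd4* and *P2ry12*. Both comparisons share the injured VEGFR3fl/fl libraries, so a gene high in these by error would be high in one and low in the other.

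*Aif1* fell by 1.11 on the log2 scale (standard error 0.12, edgeR adjusted p = 0.0214, at most 0.148 in edgeR alternatives, DESeq2 adjusted p = 3.07e-11), from 24.6 ± 0.490 to 11.4 ± 1.23 CPM (SD, n = 3). *Tmem106a* fell by 0.80 (standard error 0.091, edgeR adjusted p = 0.0214, at most 0.168 in edgeR alternatives, DESeq2 adjusted p = 4.91e-10), from 102.8 ± 7.27 to 59.0 ± 6.34 CPM (SD, n = 3). *Adgre1* fell by 0.60 (standard error 0.091, edgeR adjusted p = 0.0278, at most 0.219 in edgeR alternatives, DESeq2 adjusted p = 1.04e-06), to 92.2 ± 6.64 CPM (SD, n = 3), a 1.52-fold change just past the 1.5-fold limit. *Selenop* fell by 0.70 (standard error 0.13, edgeR adjusted p = 0.0417, at most 0.364 in edgeR alternatives, DESeq2 adjusted p = 1.30e-05), from 1590 ± 167.9 to 976.5 ± 144.2 CPM (SD, n = 3). These 4 genes include the 3 members with the largest rise after injury apart from *Timd4*, and *Selenop*, which had not risen.

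The remaining members did not pass. *Gpr34* came nearest, with a log2 fold change of -0.90 (standard error 0.22, edgeR adjusted p = 0.067), and was called by DESeq2 (adjusted p = 0.0103) and by edgeR without injured VEGFR3fl/fl replicate 2 (adjusted p = 0.0361, with 0.284 as the highest of any alternative). The log2 fold change was -0.35 for *Mertk* (edgeR adjusted p = 0.131), -0.21 for *Axl* (0.175), -0.62 for *Gas6* (0.238), -0.44 for *Timd4* (0.688) and -0.36 for *P2ry12* (0.287). *Gas6* in libraries labelled VEGFR3iLECko stood at 944.2, 801.4 and 561.5 CPM. When single injured VEGFR3fl/fl libraries were left out, its log2 fold change ran from -0.88 without replicate 2 to -0.21 without replicate 1. The same values ran from -0.92 without replicate 1 to -0.021 without replicate 3 for *Timd4*, and from -0.53 without replicate 1 to -0.20 without replicate 3 for *P2ry12*.

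The 4 calls depended on the libraries in the fit. With the Sham libraries left out of the fit, with Y-linked expression as a covariate, or without replicate 2 labelled VEGFR3iLECko, 0 members were called by edgeR, although the log2 fold changes of *Aif1*, *Tmem106a*, *Adgre1* and *Selenop* then lay between -1.10 and -0.59. An unadjusted p under 0.05 was reached by 2805, 1365 and 2447 of all genes in these 3 fits, and DESeq2 called 5 members in the 9 libraries. Among the 4 libraries with low Y-linked expression, 1 of injured VEGFR3fl/fl and 3 labelled VEGFR3iLECko, values can be set side by side without a test: *Aif1* was at 24.0 CPM and at 10.02 to 12.3 CPM, *Tmem106a* at 98.5 CPM and at 52.4 to 65.0 CPM, *Adgre1* at 143.6 CPM and at 84.7 to 97.4 CPM, and *Selenop* at 1496 CPM and at 880.1 to 1142 CPM.

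*Selenop* exons overlap those of *Ccdc152* on the other strand, and its estimated counts were the only ones among the members that were not whole numbers. *Ccdc152* stood at 25.6, 24.1 and 17.8 CPM in injured VEGFR3fl/fl and at 15.6, 9.74 and 7.89 CPM in libraries labelled VEGFR3iLECko, a log2 fold change of -1.02 (edgeR adjusted p = 0.0807). The part of *Ccdc152* in the *Selenop* value was not tested.

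Compared with Sham, libraries labelled VEGFR3iLECko still had 8 members called higher and 1 lower, whereas 19.7% of all genes were called higher, 15.0% lower and 66.5% did not overlap. The 8 again include *Timd4*, which passed the filter only through its counts in injured libraries. The log2 fold change was 2.54 for *Adgre1*, 2.31 for *Tmem106a*, 2.21 for *Aif1*, 1.34 for *P2ry12*, 1.33 for *Mertk*, 1.26 for *Gpr34* and 0.76 for *Axl*. *Timd4* was 6.05-fold higher than the floor of 3 counts per Sham library. The edgeR adjusted p ran from 1.98e-07 to 0.0125 for these 8 genes. *Selenop* fell by 0.77 (edgeR adjusted p = 0.000986) and was lower in every library. *Gas6* had a log2 fold change of 0.094 (edgeR adjusted p = 0.81). With Y-linked expression as a covariate 5 were called higher and 0 lower, and the calls of *Selenop* (adjusted p = 0.0595), *P2ry12* (0.0513), *Gpr34* (0.0829) and *Timd4* (0.216) were lost. Y-linked expression separated these groups completely, so no library pair of equal Y-linked level was available for this comparison.

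Set against the general macrophage signal, 9 members were lower after injury of VEGFR3fl/fl mice, and *Timd4*, at its floor in Sham, could not be placed. The mean log2 level of 17 pan-macrophage genes such as *Csf1r*, *Cd68* and *Tyrobp* was 4.48 to 4.61 in Sham, 8.48 to 8.80 in injured VEGFR3fl/fl and 8.12 to 8.22 in libraries labelled VEGFR3iLECko, computed as log2(CPM + 0.5). That mean rose far more than the median of all genes (log2 fold change 0.010), so any gene that rose less than it, or did not change, also falls relative to it. The fall is therefore not particular to the members. The share of all genes that did so was not computed. Relative to that mean, each of these 9 stood lower in every injured VEGFR3fl/fl library than in any Sham library, with or without the pseudocount of 0.5 CPM. The difference was smallest for *Adgre1* at -0.99, *Aif1* at -1.02 and *Tmem106a* at -1.04, was -2.18 for *Gpr34*, -2.44 for *Mertk* and -2.53 for *P2ry12*, and was -3.14 for *Axl*, -3.49 for *Gas6* and -4.17 for *Selenop*. For *Timd4* it was -2.72 with the pseudocount and -1.10 without it, where its Sham and injured VEGFR3fl/fl libraries overlapped, so no direction was drawn.

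Between the injured groups the same measure moved little for most members. *Aif1* was lower by a further -0.61 and *Tmem106a* by -0.33 in libraries labelled VEGFR3iLECko, both in every library, whereas *Axl* was 0.26 higher in every library. For *Adgre1* the difference was -0.13 and for *Selenop* -0.24, with overlapping groups, as for the other 5 members. On the CPM scale 26.7% of all genes separated between these groups in either direction. The share that did so on the relative measure was not computed, so the separations of *Aif1*, *Tmem106a* and *Axl* are not read as particular to them. The ratio of *Selenop* to *Adgre1* CPM, 91.8 to 131.5 in Sham, was 10.4 to 12.3 in injured VEGFR3fl/fl and 9.60 to 11.7 in libraries labelled VEGFR3iLECko.

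**Figure D3:**
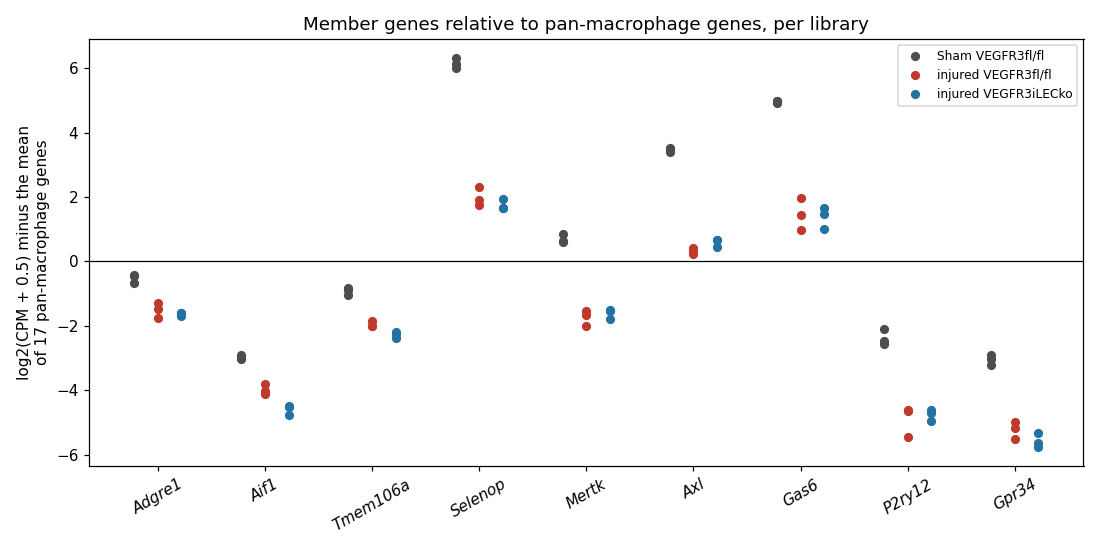
Level of each member minus the mean of 17 pan-macrophage genes, in log2(CPM + 0.5) units (vertical axis), with 1 point per library. *Timd4*, with at most 3 counts in Sham libraries, is left out. Any gene that rose less after injury than the pan-macrophage mean falls on this scale. For the 9 genes shown the Sham points lie above the injured VEGFR3fl/fl points, with a difference of group means of -0.99 for *Adgre1* and -4.17 for *Selenop*, while the injured groups overlap except for *Aif1*, *Tmem106a* and *Axl*.

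Compared per transcript length, as approximate TPM, the transcript level scaled by length and library, the members covered a wide range in Sham irises. *Selenop* was highest at 2282 TPM, followed by *Gas6* at 809.5 TPM and *Axl* at 172.6 TPM, all far above *Mertk* at 24.9 TPM, *Tmem106a* at 14.02 TPM, *Adgre1* at about the same level, *Aif1* at 8.07 TPM, *P2ry12* at 4.92 TPM, *Gpr34* at 3.18 TPM and *Timd4* at 0.172 TPM. After injury of VEGFR3fl/fl mice *Adgre1* at 101.1 TPM, *Tmem106a* at 98.4 TPM, *Aif1* at 65.4 TPM and *Mertk* at 65.2 TPM stood together below *Axl* at 274.4 TPM. In Sham irises 25 other genes of resident tissue macrophages summed to 1132 to 1184 CPM, of which *Igf1*, a growth factor gene also expressed by stromal cells, held 364.4 CPM. The 22 other microglia signature genes summed to 3951 to 4288 CPM, of which *Ctss*, *Trem2*, *Olfml3* and *Lgmn* held 38.9, 8.26, 36.5 and 141.5 CPM. All 17 pan-macrophage genes summed to 656.2 to 720.8 CPM there, so the sum of the microglia list is no measure of microglia. Among single markers, picked after their values were seen and not representative of the lists, *Lyve1* stood at 3.94 CPM, *Cd163* at 6.58 CPM, *Vsig4* at 0 CPM and the microglial factor *Sall1* at 0.21 CPM.

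**Figure D4:**
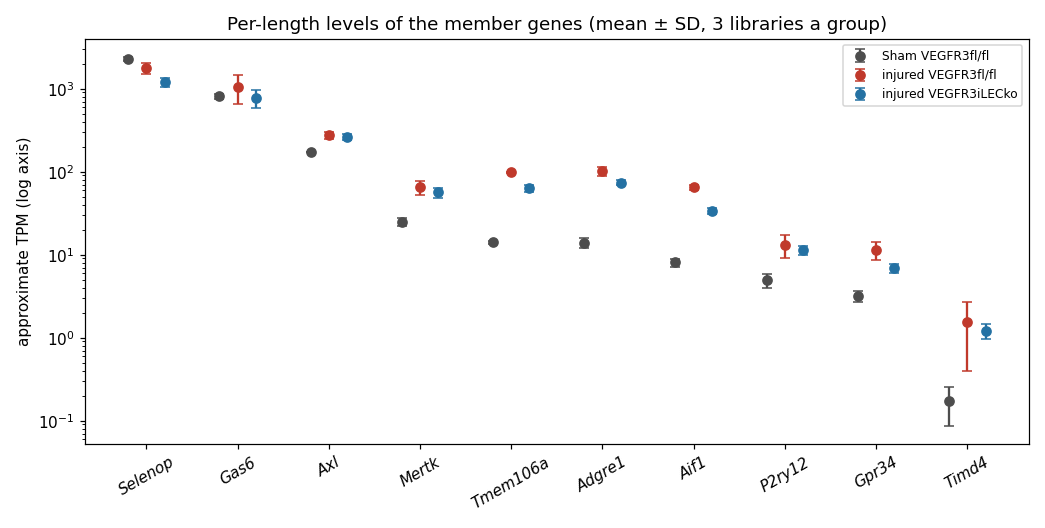
Approximate TPM of the 10 members (vertical axis, log scale) as mean ± SD of 3 libraries in each group, ordered by the Sham level. *Selenop*, *Gas6* and *Axl* lead in all 3 groups, and *Timd4* is lowest throughout, from 0.172 TPM in Sham to 1.53 TPM in injured VEGFR3fl/fl libraries.

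Related genes outside the 10 members were counted in lists that were also drawn up with earlier results of these libraries known. Of 27 genes for TAM signalling and uptake of dying cells, 26 were tested, and after injury 17 were called higher and 2 lower, with a median log2 fold change of 1.42. The largest rises were those of *Cd300lf* at 8.77, *Cd300lb* at 5.49, *Thbs1* at 4.42 and *Itgb3* at 3.99, and the genes that fell were *Gulp1* (-0.94) and *Tyro3*. In libraries labelled VEGFR3iLECko 3 genes of this list were called lower than in injured VEGFR3fl/fl and 0 higher, all subunits of complement C1q. *C1qa* fell by 0.79, *C1qb* by 0.95 and *C1qc* by 0.76 on the log2 scale (edgeR adjusted p from 0.0235 to 0.0263), while the median of the list was -0.093. All 3 calls were lost in the fit of only the 6 libraries compared, with the Y-linked covariate, with the replicate block, and without Sham replicate 3 or any single library labelled VEGFR3iLECko.

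Other genes of resident tissue macrophages gave 14 called higher and 1 lower of 22 tested after injury, with a median of 1.97. *Ccl8* rose by 7.33, *Cd5l* by 7.44 and *Fcna* by 4.29, *Vsig4* was at least 7.96-fold higher than the floor of 3 counts, and *Igf1* fell by 0.82. *Lyve1* and *Cd163*, genes of this list picked after their values were seen, had log2 fold changes of -1.20 (edgeR adjusted p = 0.193) and -1.14 (edgeR adjusted p = 0.188). They went against most of the list, in which 17 of the 22 tested genes had a positive log2 fold change. The study also used LYVE1 staining to mark lymphatic vessels in the injured iris, and the part of these vessels in the *Lyve1* level was not tested. Between the injured groups edgeR called 0 of the list, with 7 genes lower and 0 higher at an unadjusted p under 0.05, DESeq2 called 2 lower, and the median was -0.27.

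Other microglia signature genes had 17 called higher and 0 lower of 19 tested after injury, with a median of 1.49, led by *Ctss* at 5.88, *Trem2* at 5.17, *Olfml3* at 3.37 and *Lgmn* at 2.80. *Tmem119*, a microglia marker, rose by 1.92 (edgeR adjusted p = 0.000107). Between the injured groups, *Cx3cr1*, which encodes the fractalkine receptor, fell by 0.94 (edgeR adjusted p = 0.0417) and *Fcrls* by 0.81 (edgeR adjusted p = 0.0278), 1 of the 19 genes had a positive log2 fold change, and the median was -0.47. Both calls were lost in the same fits and without Sham replicate 1. *Tmem119* differed by -0.47 (edgeR adjusted p = 0.226). *Csf1r*, the receptor for the macrophage growth factor CSF1, differed by -0.51 (edgeR adjusted p = 0.0263) without reaching 1.5-fold.

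Of 20 genes of monocytes and recruited macrophages, 18 were called higher after injury and 0 lower, with a median of 4.26, and with *Chil3* at 7.67, *Fabp5* at 6.74 and *Lyz2* at 6.53 among the large rises. All 17 pan-macrophage genes were called higher, with a median of 4.10. Between the injured groups the first list gave 1 called lower, *Ms4a6c* at -0.70, and a median of -0.18, and the second gave *Fcgr1* at -1.03 called lower, *Cd14*, a coreceptor for bacterial lipopolysaccharide, at 0.86 called higher, and a median of -0.61, the same to 2 decimals as the median of the 10 members. *Ptprc*, the pan-leukocyte gene for CD45, differed by -0.026 (edgeR adjusted p = 0.943), and the summed level of 9 neutrophil markers was 172.4 to 512.2 CPM in injured VEGFR3fl/fl and 370.3 to 1257 CPM in libraries labelled VEGFR3iLECko.

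Among receptors and enzymes related to P2Y12, 14 of 15 tested genes were called higher and 1 lower after injury, with a median of 2.23. *P2ry10* rose by 4.40, *Gpr171* by 4.28, *Lpar5* by 3.45 and *P2ry2* by 3.00, and *P2ry1* fell by 1.44. *P2ry6*, a UDP receptor, was the gene called between the injured groups and fell by 0.66 (edgeR adjusted p = 0.042). Selenoprotein genes other than *Selenop* had 0 called in either direction between the injured groups by edgeR, with 3 higher and 5 lower at an unadjusted p under 0.05, 2 called higher by DESeq2 and a median of -0.018. In the fit of only the 6 libraries compared, edgeR called 0 genes of any of these lists between the injured groups, as it called 0 of all genes. Of the 3 tested relatives of *Timd4* and *Tmem106a* edgeR and DESeq2 called 0, with 1 lower at an unadjusted p under 0.05.

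**Figure D5:**
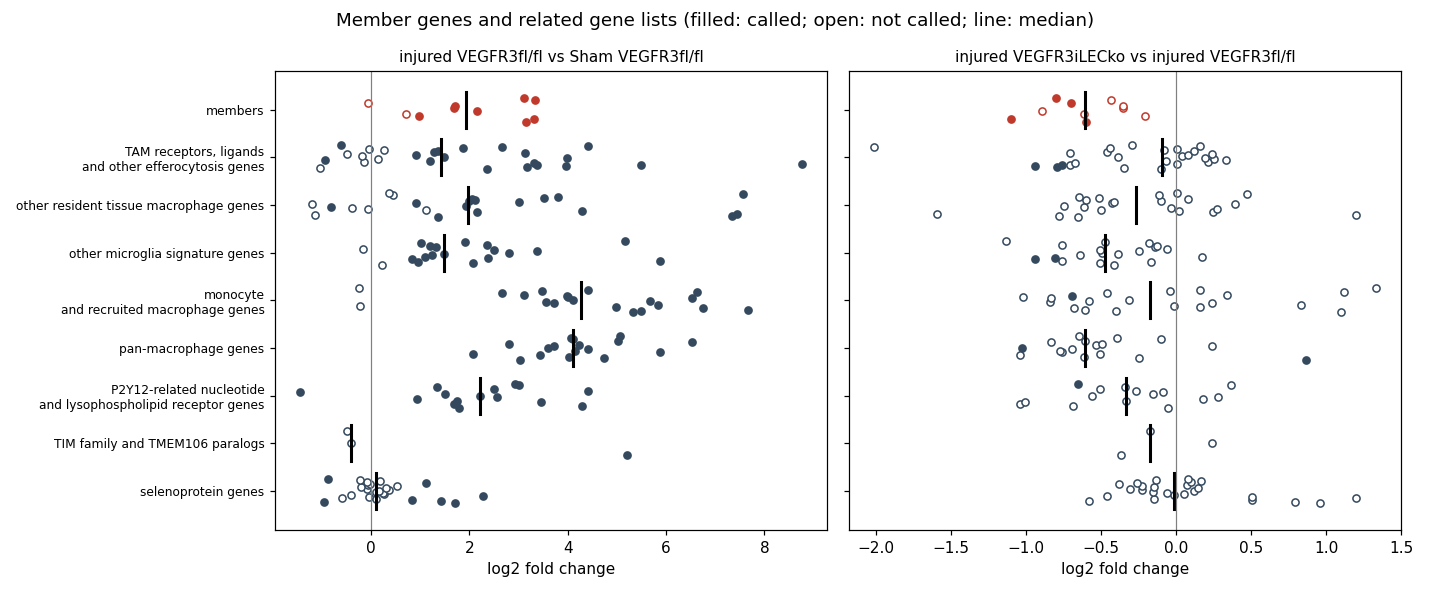
Log2 fold changes (horizontal axes) of the members and of genes in 8 related lists, 1 point per gene, for injured VEGFR3fl/fl against Sham (left) and injured VEGFR3iLECko against injured VEGFR3fl/fl (right). Filled points were called, open points were not, and lines are medians. After injury the monocyte and pan-macrophage lists have medians of 4.26 and 4.10 and the members 1.93, and on the right the members and the pan-macrophage genes share a median of -0.61.

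Cell types that could also carry these genes moved with injury. The summed level of 12 fibroblast markers was 5192 to 5637 CPM in Sham, 16250 to 23420 CPM in injured VEGFR3fl/fl and 17460 to 22220 CPM in libraries labelled VEGFR3iLECko, and that of 10 markers of blood endothelium was 613.4 to 658.8, 1412 to 1476 and 1292 to 1493 CPM. Markers of platelets, which carry P2Y12, summed to 13.6 to 15.7, 18.5 to 23.5 and 17.7 to 23.8 CPM, with *Gp6* and *Treml1* at 0 in Sham. Dendritic cell markers summed to 11.1 to 12.5, 42.3 to 44.8 and 25.7 to 33.3 CPM, the 7 B cell markers to 2.38 to 2.87, 58.5 to 87.5 and 35.3 to 54.1 CPM, and the 8 T cell markers measured to 4.79 to 5.21, 40.5 to 58.7 and 24.6 to 43.6 CPM. Between the injured groups the fibroblast, endothelial, platelet and T cell sums overlapped. The sums of dendritic cell, B cell and pan-macrophage markers were lower in every library labelled VEGFR3iLECko. Of all single genes 26.7% separated in either direction. The part of any of these cell types in the levels of the members was not tested.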

How the data were processed

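Iris RNA of 9 libraries was sequenced as single-end reads of 50 bases. Per the labels, the authors' processing notes name HISAT2 2.0.4, Bowtie2 2.2.5, DESeq2 1.4.5 and mm10. The program that estimated counts, the annotation and strand use are not given in the sources used here. The authors deposited estimated counts per gene without normalization, between 9.83% and 10.3% of them not whole in a library. A combined table with the same values, group averages and comparisons by the authors was not used here. Groups came from titles, treatments and descriptions. Of the injured VEGFR3iLECko libraries, 2 carry a genotype tag with another receptor number, and titles were followed. Nothing states that the pools come from separate litters or batches, so p-values measure the spread between these pools.

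Counts were rounded in R 4.3.3, filtered by filterByExpr and normalized by TMM (factors 0.90 to 1.09) in edgeR 4.0.16, which kept 15010 of 18349 genes, in place of the study's TPM filter. All 9 libraries were fitted with group as the only term. A call took an adjusted p under 0.05 and over 1.5-fold. Standard errors came from the F statistic. With 3 libraries against 3, an exact permutation test cannot go below p = 0.1. DESeq2 1.42.0 served as an alternative, and the fit was tested on simulated data. A fold against a group with at most 3 counts in every library was taken against 3 counts, and is no confidence limit. Approximate TPM used longest transcripts of GENCODE M21. Promoters came from RefSeq.

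The members and gene lists were chosen with earlier results of these data known. All members were named, as were partners and paralogs fixed by name, and up to 4 examples per list and direction, the called genes with the largest changes at a mean of at least 1 CPM, of which 1 is not reported here. *Lyve1*, *Cd163*, *Sall1*, *Ptprc*, *Gp6* and *Treml1* were added after their values were seen. Alternatives covered scaling, filter, test, libraries fitted, a replicate block, a Y-linked covariate, the fold threshold and leaving out each library.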

Additional observations from a re-analysis of the deposited data

How the results depend on the processing

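Injured VEGFR3fl/fl compared with Sham kept 7 to 9 members called higher and 0 lower under all 18 alternatives. The count of 7 is the fit of only the libraries compared, where *Timd4* did not pass the filter and could not be fitted, and the count of 9 includes *Gas6*. Between the injured groups the 4 members called lower became 2 with scaling by library size only, 2 with the replicate block, 0 in the fit of only the 6 libraries compared and 0 with Y-linked expression as a covariate, and ranged from 0 to 4 when single libraries were left out. It was 0 without replicate 2 labelled VEGFR3iLECko, and 2, *Aif1* and *Tmem106a*, without Sham replicate 1 or 3 or without replicate 1 or 3 labelled VEGFR3iLECko. In these fits edgeR called 0 to 71 of all genes higher and 0 to 41 lower in this comparison, compared with 86 and 70 in the fit of all libraries. The other alternatives gave 3 to 5. The cause was not tested. Against Sham, libraries labelled VEGFR3iLECko had 5 members called higher and 0 lower with the Y-linked covariate, and 8 and 1 under all other alternatives. Changes of direction concerned values near 0: *Selenop* after injury was 0.0038 without Sham replicate 2, and *Gas6* in libraries labelled VEGFR3iLECko compared with Sham was -0.016 with scaling by library size only and ran from -0.079 to 0.28 when single libraries were left out, below 0 without replicate 1 labelled VEGFR3iLECko. Scaling by library size only moved the median of all genes to -0.16 after injury. Deviations of same-numbered libraries from their group means correlated between -0.385 and 0.121. No value from differently numbered libraries was set beside these, so whether replicate numbers pair the samples cannot be decided from them. Among the members the replicate block changed no other call. Over all genes it left 11 called higher and 13 lower between the injured groups. Levels relative to pan-macrophage genes were recomputed without the pseudocount, an alternative chosen after seeing the data, which moved *Aif1* after injury to -0.83 and *Timd4* to -1.10. *Timd4*, with at most 36 counts in a library, is the member that depth limits most.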
